A study of Mus musculus with 3 samples.

Results

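Close pairs are places where exactly 2 listed c-FOS peaks lie side by side, with at most 1000 bp between the end of the first and the start of the second, and with no further peak linked to either. Members were chosen by the measured positions of the peaks: the deposited list was sorted and neighbours were linked by this rule, which gave 1361 pairs. They hold 2722 of the 15011 listed peaks, or 18.1% (Wilson 95% interval 17.5 to 18.8%). When every chain of linked peaks is counted once as a region, the list has 12933 regions, of which 10.5% are pairs, 292 are chains of 3 or more peaks and the rest are single peaks. Pairs account for 73.0% of the 3731 peaks that have any neighbour within the linking gap.

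The list comes from chromatin immunoprecipitation and sequencing (ChIP-seq) in the cell line ASZ001, which stems from a basal cell carcinoma of the mouse. Its cells expressed RasV12 (constitutively active Ras) and had a knockdown of the TGF-beta receptor TGFbR1 by shRNA. They were treated with Dox and 4OHT, and chromatin was collected on day 6 of induction. There were 2 c-FOS ChIP samples and 1 input sample without antibody, and all 3 shared this genotype and treatment. The design thus holds 1 cell line in 1 state, with no uninduced arm among the samples used here, so pairs were not compared between conditions. The peaks are deposited as 1 list in which the ChIP samples cannot be told apart. No value below therefore has a replicate error, and depth and peak height are unknown.

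c-FOS is a subunit of AP-1, a dimer of a FOS and a JUN protein that binds a short palindromic DNA element (TGANTCA and close variants) through paired basic leucine zippers. The Fos gene is an immediate-early gene that is switched on through Ras and the MAP kinase cascade, and AP-1 is a well-known regulator of keratinocyte growth, differentiation and squamous gene expression. AP-1 often occupies enhancers, where several of its elements and those of partner factors can lie close together. Whether the partners of a pair are separate elements or 1 occupied stretch that peak calling divided was not tested, and an mm9 sequence was not used here, so no peak sequence is printed.

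The median midpoint spacing, the distance from the centre of one partner to the centre of the other, was 458.5 bp, with quartiles of 330 and 683 bp. Measured from edge to edge, the median gap was 246 bp, with quartiles of 130 and 466 bp. These distances are what the rule selects on, so they describe the members and carry no test. From outer edge to outer edge a pair spanned a median of 670 bp. All pairs together spanned 992 kb, of which 543 kb lay inside peaks, which is 19.1% of all bases in the peak list.

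The spacings formed 1 broad, skewed distribution. Spacings over 300 and up to 400 bp were the commonest, with 294 pairs or 21.6%, followed by those over 200 and up to 300 bp with 237 pairs and those over 400 and up to 500 bp with 216 pairs. At most 500 bp separated the midpoints of 757 pairs, or 55.6% (Wilson 95% interval 53.0 to 58.2%). Spacings over 1000 bp were found in 88 pairs, which the rule allows because it limits the gap and not the midpoint spacing. The tightest pair by midpoint lay on chromosome 17 from 83711820 to 83712096, where peaks of 102 and 98 bp had centres 177 bp apart. The loosest lay on chromosome 15 from 36722131 to 36724144, where peaks of 621 and 394 bp had centres 1506.5 bp apart.

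**Figure D1:**
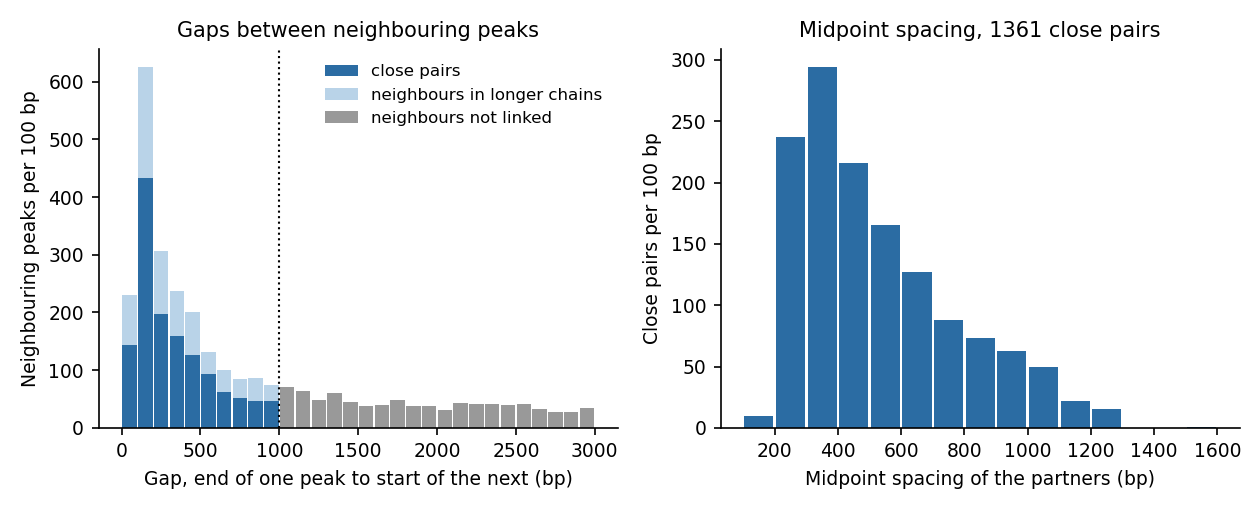
Left: number of neighbouring peaks per 100 bp of gap, for close pairs (dark blue), neighbours inside longer chains (light blue, stacked on top) and neighbours beyond the linking gap of 1000 bp (grey, dotted line at the limit). Right: number of close pairs per 100 bp of midpoint spacing. Gaps over 100 and up to 200 bp hold 433 pairs, and the counts fall to 46 pairs in the last 100 bp before the limit.

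Short gaps dominated. A gap of at most 150 bp was found in 421 pairs, or 30.9% (Wilson 95% interval 28.5 to 33.4%), and a gap of at most 250 bp in 693. In steps of 10 bp the fullest was 100 to 109 bp with 78 pairs, next to 72 pairs at 110 to 119 bp, and the count was 35 at 130 to 139 bp and 13 at 250 to 259 bp. The smallest gap was 76 bp, seen in 9 pairs, and 24 pairs had gaps below 80 bp. MACS2, the peak caller, joins stretches that lie closer than a maximum gap and discards stretches shorter than a minimum length. Neither setting is given in the sources used here, so the part such settings play in the lower end of the distribution was not tested.

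Towards the upper end the counts of pairs fell more slowly, while those of all neighbouring peaks declined unevenly past the limit of the rule. Pairs with gaps over 500 and up to 600 bp numbered 93, those over 700 and up to 800 bp 52, and those over 900 and up to 1000 bp 46. With longer chains included, 75 neighbouring peaks had gaps in that last step, against 71 in the next step outside the rule (over 1000 and up to 1100 bp). The count was 37 over 1500 and up to 1600 bp and 35 in the step ending at 3000 bp. The members just inside the limit resembled the nearest candidates outside it in their widths. The 20 pairs with gaps over 950 bp had median widths of 249 bp for the wider and 141 bp for the narrower partner. The 27 would-be pairs with gaps over 1000 and up to 1050 bp had 245 and 138 bp.

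The 3 pairs nearest the limit inside it were the chromosome 15 pair above with a gap of 999 bp (621 and 394 bp wide), a pair on chromosome 17 from 88839770 to 88841302 with 997 bp (139 and 397 bp wide), and a pair on chromosome 16 from 85172619 to 85174172 with 995 bp (236 and 323 bp wide). The first 3 outside were on chromosome 11 from 59447557 to 59449069 with a gap of 1004 bp (318 and 191 bp wide), on chromosome 13 from 40555805 to 40557109 with 1005 bp (162 and 138 bp wide), and on chromosome 5 from 64821756 to 64823155 with 1007 bp (254 and 139 bp wide). In these 6 cases each wider partner inside the limit was wider than each one outside it, unlike the medians above. Linked neighbours within chains of 3 or more were spaced much like pairs. Their median midpoint spacing was 487.5 bp over 717 links, and 26.8% of their gaps were over 100 and up to 200 bp, against 31.8% of the gaps in pairs.

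The 5 pairs with the smallest gap, in order of chromosome among the 9 tied at 76 bp, show how differently such pairs are built. On chromosome 5 from 137943035 to 137943504, peaks of 196 and 198 bp flanked the gap almost symmetrically. A second pair on that chromosome, from 29704837 to 29705214, joined 141 and 161 bp, with the nearest other peak 182439 bp away. The third, from 104121149 to 104121631, joined 290 and 117 bp. On chromosome 2 from 164286302 to 164287061 the partners measured 390 and 294 bp, and the nearest other peak was 3532 bp away. On chromosome 3 from 101375676 to 101376067 they measured 205 and 111 bp. Equal and unequal partners, and crowded and solitary pairs, thus all occurred at the same gap.

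Paired peaks were slightly wider than single ones. Their median width was 168 bp (exact binomial 95% interval of the median 164 to 172), against 156 bp (154 to 157) for the 11280 single peaks and 167 bp (160 to 173) for the 1009 peaks in longer chains. The intervals treat peaks as independent and cover no variation between samples. The narrowest width in the list, 98 bp, was held by 8.27% of paired peaks (Wilson 95% interval 7.29 to 9.36%) and 11.5% of single peaks (10.9 to 12.1%). At the other end, 13.5% of paired peaks and 10.9% of single peaks were wider than 300 bp, and 2.06% and 1.57% were wider than 500 bp. Chromosome by chromosome, the paired median was above the single median on 14 of the 18 chromosomes with at least 10 pairs and below it on 4. Among these the paired minus the single median ran from -13.5 bp on chromosome 18 (149.5 against 163 bp) to 30.5 bp on chromosome 5 (183.5 against 153 bp).

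The widths of partners were at most weakly related. Across the 1361 pairs Spearman's rho between the width of the first and the second partner was 0.034, and Pearson's r of the log2 widths was 0.030. The rank coefficient was 0.095 over the 861 pairs with no other peak within 10 kb, and 0.067 over the 1523 pairs formed with a linking gap of 2000 bp. These coefficients describe sites of 1 list that share libraries, depth and peak calling, and carry no p-value. The wider partner measured a median of 220 bp and the narrower 130 bp, with a median difference of 71 bp and a median ratio of 1.51. In 672 pairs, 49.4% (Wilson 95% interval 46.7 to 52.0%), the wider partner was less than 1.5 times as wide as the narrower, and in 364 pairs, 26.7%, it was at least 2 times as wide. Widths matched within 10 bp in 134 pairs and exactly in 16. Of these 16 exact matches, 13 were pairs with both partners at the narrowest width of 98 bp. The 134 pairs were 9.85% of all pairs, against 9.76% of linked neighbours inside longer chains. The share was slightly higher in each class of neighbours over 1 kb apart, and highest at 2 to 5 kb with 12.1%. The partner with the lower coordinate was the wider in 665 pairs and the narrower in 680.

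**Figure D2:**
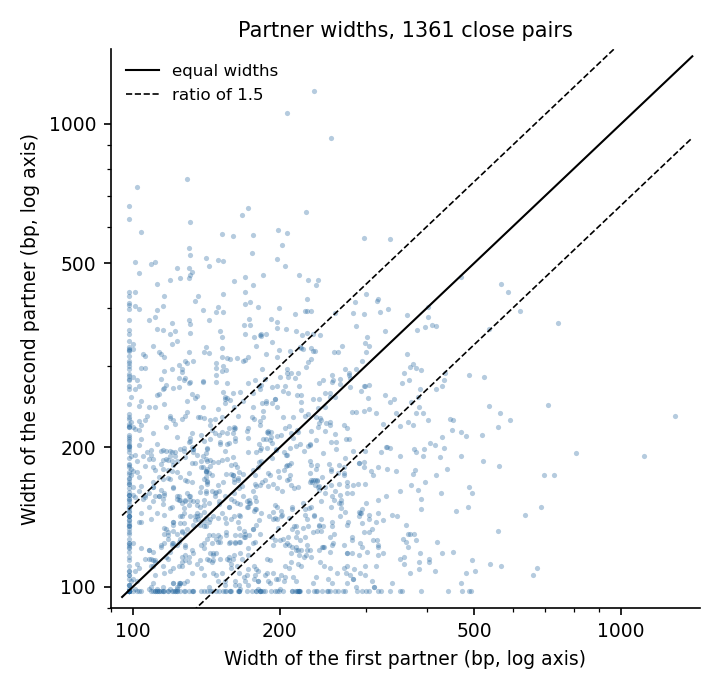
Width of the second partner against width of the first for the 1361 close pairs, both in bp on log axes; each point is 1 pair, the solid line marks equal widths and the dashed lines a ratio of 1.5. The points fill the plane with no trend along the solid line (Spearman's rho 0.034), and the rows of points at 98 bp are peaks at the narrowest width.

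Knowing one partner's width said little about the other's. Partners of the 225 paired peaks at 98 bp had a median width of 159 bp and quartiles of 119 and 225 bp. Partners of the 1117 peaks over the list median of 158 bp and up to 300 bp had a median of 170 bp. Partners of the 311 peaks over 300 and up to 500 bp had a median of 173 bp, and those of the 56 peaks over 500 bp had 175.5 bp with quartiles of 131 and 230 bp. Over this range of the first peak, the median of its partner thus moved by 16.5 bp.

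Sorted by the list median of 158 bp, both partners were wider in 415 pairs (30.5%), only 1 was in 654 (48.1%) and neither was in 292 (21.5%). Both partners were at 98 bp in 13 pairs, and 1 partner was in a further 199. A peak over 500 bp was present in 56 pairs, and in none of them was its partner over 500 bp too. Such peaks were only 2.06% of paired peaks, and 2 of them side by side were rare elsewhere as well. There were 2 such cases among 717 links in longer chains, 0 among 490 neighbours 1 to 2 kb apart and 1 among 6571 at 10 to 100 kb. Both partners exceeded 300 bp in 23 pairs, or 1.69%, against 1.84% of neighbours 1 to 2 kb apart and 1.23% of those beyond 100 kb. The share was higher inside longer chains, with 30 of 717 links or 4.18%.

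Neighbours lying farther apart were also at most weakly related in width. Among the 490 neighbouring peaks with gaps over 1 and up to 2 kb, Spearman's rho of the widths was 0.11, and it was 0.090 over 2 to 5 kb (875 neighbours), 0.067 over 5 to 10 kb (1145), 0.010 over 10 to 100 kb (6571) and 0.023 beyond 100 kb (3831). Linked neighbours inside longer chains gave 0.082. The share with a width ratio under 1.5 was 49.4% for close pairs and 48.5% for linked neighbours inside longer chains. In the classes over 1 kb apart it lay between 50.5 and 53.1%. Close pairs were thus slightly below each of those classes, though the Wilson intervals overlap. Close pairs held more cases in which both partners were wider than the list median, 30.5% against 23.8% beyond 100 kb, but the share was 31.0% in longer chains and 29.4% at gaps of 1 to 2 kb. They held fewer in which exactly 1 partner was at the narrowest width, 14.6% against 20.9%, with 17.6% in longer chains and 15.9% at 1 to 2 kb. These contrasts go with the higher median width of paired peaks given above.

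**Figure D3:**
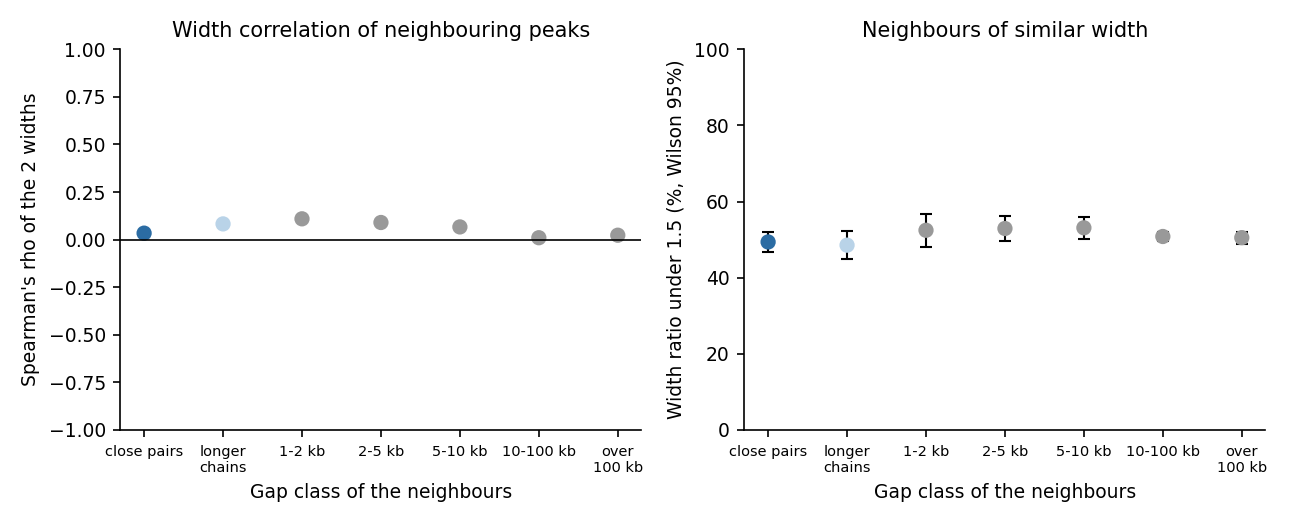
Left: Spearman's rho between the widths of neighbouring peaks, by gap class, on the full scale of the coefficient. Right: percentage of neighbours whose width ratio is under 1.5, with Wilson 95% intervals for counting error. Close pairs (dark blue, rho 0.034 and 49.4%) sit beside longer chains (light blue) and neighbours 1 kb to over 100 kb apart (grey), none of which exceeds a rho of 0.11.

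Within the pairs, width and distance showed no trend either. Over the 1361 pairs Spearman's rho was 0.010 between gap and summed width and -0.018 between gap and width ratio. In steps of 200 bp of gap, the median of the wider partner stayed between 215 and 229.5 bp and that of the narrower between 129 and 134 bp. The partner correlation lay between -0.016 and 0.045 in the first 4 steps and was 0.22 in the last step, which holds only 93 pairs with gaps over 800 bp. On single chromosomes with at least 10 pairs it ran from -0.27 (chromosome 3, 68 pairs) to 0.20 (chromosome 18, 29 pairs), with 10 positive and 8 negative values.

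The pairs with the largest summed width were in each case 1 very wide peak beside an ordinary one. The largest sum, 1522 bp, was on chromosome 5 from 115939245 to 115940912, where a peak of 1288 bp lay 146 bp before one of 234 bp. Next came chromosome 5 from 113566623 to 113568141 (235 and 1180 bp), a chromosome 6 pair from 47403735 to 47405166 (1115 and 192 bp), then a chromosome 11 pair from 100115734 to 100117398 (207 and 1056 bp) and chromosome 19 from 5794212 to 5795482 (255 and 931 bp). Their width ratios ran from 3.65 to 5.81. The wide peak came first in 2 of these 5 and second in 3. Of the 10 widest peaks in the whole list, 4 belonged to close pairs, 4 to longer chains and 2 stood alone. Among all 15011 peaks, 2722 were in close pairs, 1009 in longer chains and 11280 single, so longer chains were the most overrepresented.

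The most unequal pairs placed a peak of or near the narrowest width beside one of over 600 bp. The largest ratio, 7.16, was on chromosome 11 from 51397601 to 51398608, with 102 and 730 bp. A second pair on chromosome 11, from 116704338 to 116705457, had 98 and 664 bp, and a pair on chromosome 17 from 35949801 to 35950598 had 98 and 624 bp with a gap of only 76 bp. The others were on chromosome 3 from 138189765 to 138191013 (661 and 106 bp) and chromosome 2 from 26244347 to 26245242 (672 and 110 bp). Each small partner in this group measured between 98 and 110 bp, so the floor on listed widths bounds these ratios.

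Among the 23 pairs with both partners over 300 bp, the most evenly matched was on chromosome 18 from 24761771 to 24762679, where peaks of 403 and 402 bp were separated by 104 bp. The pair on chromosome 2 from 53050141 to 53051391 measured 470 and 467 bp with a gap of 314 bp. It lay alone, with the nearest other peak 332816 bp away. The next 3 were on chromosome 11 from 48630533 to 48632199 (403 and 383 bp, gap 881 bp), further a chromosome 19 pair from 42705963 to 42706989 (365 and 387 bp, gap 275 bp) and chromosome 11 from 84683117 to 84684237 (382 and 358 bp, gap 381 bp). Their gaps span nearly the whole range that the rule allows.

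Pairs were spread over 20 of the 21 chromosomes in the list, and their shares followed those of all peaks only roughly. Chromosome 11 carried the most, 187 pairs or 13.7% of all pairs against 12.2% of all peaks. Chromosome 5 carried 147 (10.8% of pairs, 10.9% of peaks) and chromosome 8 carried 137 (10.1% and 9.36%). These 3 chromosomes held 34.6% of the pairs and 32.4% of all peaks on 15.3% of the assembled length, so most of this concentration is shared with the whole list. Chromosome 11 held 1.53 pairs per Mb, against 0.513 over the whole assembled length, and chromosome 19 held 92 pairs, 6.76% of all, on 2.31% of that length. The pair share was above the peak share on 7 chromosomes (2, 3, 7, 8, 11, 17 and 19) and below it on the other 14.

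Relative to its peaks, chromosome 19 was the richest in pairs: 22.7% of its 810 peaks sat in a pair (Wilson 95% interval 19.96 to 25.7%), 1.25 times the share in the list. Chromosomes 7 (20.6%), 11 (20.4%) and 3 (20.1%) followed, although chromosomes 3 and 7 held only 4.23 and 4.65 peaks per Mb. Chromosome 9 stood low, with 16 pairs and 9.41% of its 340 peaks paired (6.75 to 13.0%), 0.519 times the share in the list. Chromosome 14 had 3 pairs among 109 peaks (5.50%, 2.55 to 11.5%), chromosome X had 1 pair among 34 peaks, and chromosome Y had none among its 3. Both peaks of a pair enter these shares together, so the intervals are too narrow. The single pair on X had a midpoint spacing of 227.5 bp.

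**Figure D4:**
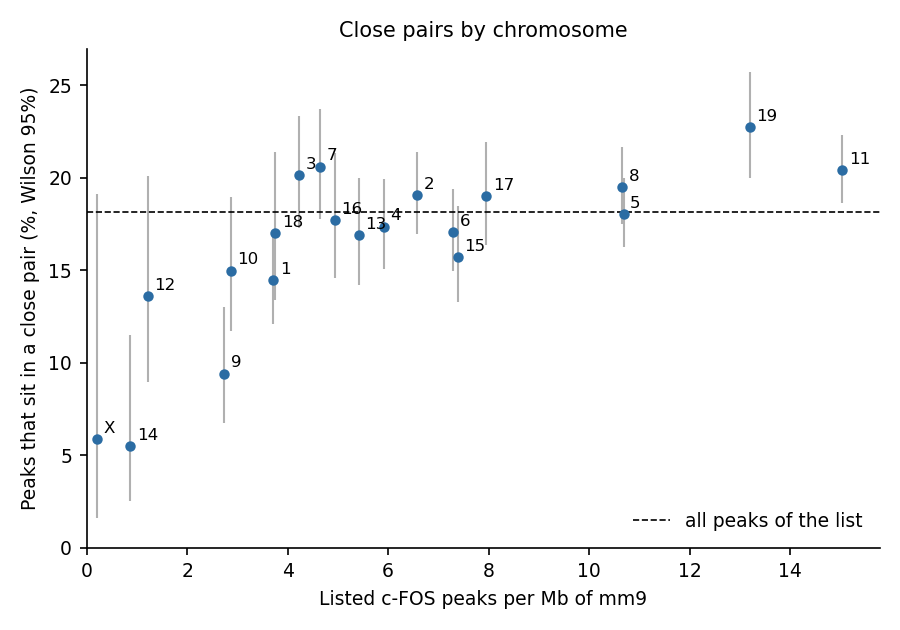
Percentage of each chromosome's listed peaks that sit in a close pair, with Wilson 95% intervals for counting error, against listed c-FOS peaks per Mb of mm9; labels are chromosome names, Y (3 peaks, no pair) is left out, and the dashed line is the 18.1% of the whole list. Chromosome 19 (22.7%) is highest and chromosomes 9, X and 14 (9.41, 5.88 and 5.50%) are lowest.

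Over the 19 autosomes the percentage of peaks in pairs went with peak density, with a Spearman's rho of 0.72 and a Pearson's r of 0.69. Without chromosomes 11 and 19, the 2 farthest from the median density, they were 0.63 and 0.63 over 17 chromosomes. The points share 1 list, and the peak count enters both axes. The percentage of pairs also rose with density at a finer scale, when each region was placed in a window of 1 Mb and a pair was counted once. Where a window held 1 region, that region was a pair in 6.93% of 361 cases (Wilson 95% interval 4.73 to 10.02%). The percentage was 7.36% in windows with 2 to 5 regions, 10.6% with 11 to 20 and 13.2% with over 40 (11.1 to 15.8%). Longer chains went from 0.554 to 4.54% of regions over the same classes. Pairs and window counts come from the same peak positions, and closer packing by itself puts more peaks within the linking gap. How much of the rise comes from packing was not tested, and counting a pair once does not remove it.

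**Figure D5:**
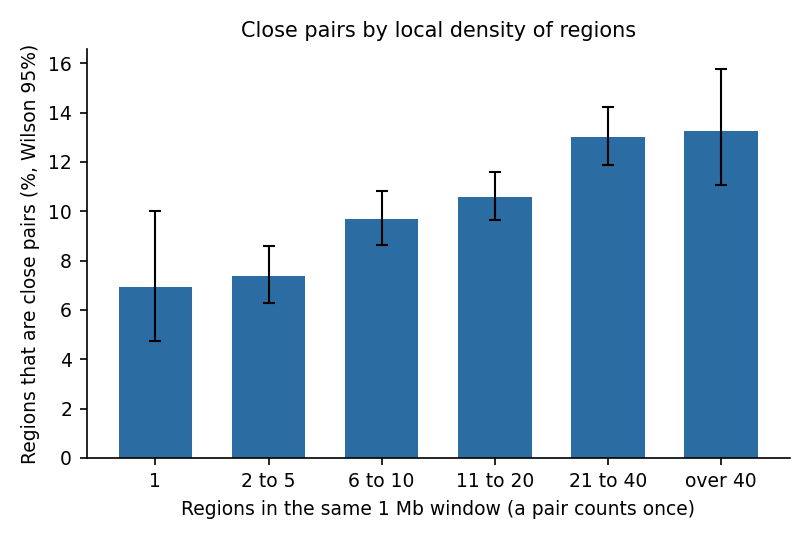
Percentage of regions (single peaks, pairs and longer chains, each counted once) that are close pairs, by the number of regions in the same 1 Mb window, with Wilson 95% intervals for counting error. The bars go from 6.93% in windows with 1 region to 13.2% in windows with over 40.

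Chromosomes were also set beside the list within 2 broad classes of window density, inside which density still varied. In windows with up to 10 regions, 8.596% of all 5235 regions were pairs (Wilson 95% interval 7.87 to 9.39%), against 3.85% of the 234 on chromosome 9 (2.04 to 7.15%) 2.83% of the 106 on chromosome 14 (0.967 to 7.99%) and 10.9% of the 147 on chromosome 19 (6.81 to 16.9%). In windows with over 10 regions the whole list had 11.8% (11.1 to 12.6%), chromosome 9 had 8.33% of 84 regions (4.10 to 16.2%) and chromosome 19 had 15.4% of 493 (12.5 to 18.9%). The interval of chromosome 9 in the denser windows and that of chromosome 19 in the sparser ones include the value of the list. The interval of chromosome 19 in the denser windows lies above the 11.8% of the list. Chromosomes 9, 14 and 19 were picked by their paired shares in these same peaks, and the list includes them. These intervals make no allowance for that choice, so no conclusion is drawn from them. Chromosome 19 was not the highest in the sparser windows, where chromosome 6 had 11.1% of 361 regions (8.24 to 14.7%). The counts behind the values for chromosomes 9 and 14 are small, with 9, 3 and 7 pairs. Copy number and mappability of the chromosomes were not analysed here.

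The median spacing varied between chromosomes, but single chromosomes were given no intervals and the differences were not tested. On the 18 chromosomes with at least 10 pairs the median midpoint spacing ran from 385.8 bp (chromosome 9, 16 pairs) to 529.2 bp (chromosome 15, 60 pairs). Chromosomes 11, 5 and 8, with the most pairs, had 476, 489.5 and 454 bp, against 458.5 bp for all pairs (exact binomial 95% interval 438 to 482.5). That interval holds for all pairs together and does not cover the wider counting error of a single chromosome's median. Chromosomes 2 (114 pairs) and 13 (55 pairs) had 408.8 and 401 bp.

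Most pairs had other peaks within 100 kb. The rule itself keeps every other region more than 1000 bp away, from single peaks and longer chains as well as from pairs. The nearest other region lay a median of 16.9 kb from a pair (quartiles 6.10 and 45.7 kb), against 21.3 kb from a single peak and 9.50 kb from a longer chain. Another region was found within 10 kb of 500 pairs, or 36.7%, compared with 31.7% of single peaks, and within 100 kb of 89.9% and 84.1%. Another pair lay within 10 kb of 86 pairs, 6.32%. At the solitary end, 137 pairs (10.1%) had no other listed peak within 100 kb and 4 had none within 1000 kb. Gap and distance to the nearest other peak had a Spearman's rho of -0.041 over the 1361 pairs.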

How the data were processed

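c-FOS ChIP-seq and input samples of ASZ001 cells were grouped by their titles. Per the submitters' processing notes, the authors used Bowtie2 for alignment on mm9 and MACS2 for peak calling. Their versions, thresholds, input use and pooling of samples were not given in the sources used here. What the authors deposited is a chromosome, a start and an end in bp per peak, in 1 list without scores or replicate names. Read totals were not used here, so depth is unknown. All peaks fitted within the mm9 chromosome lengths, and 55 exceeded those of mm10 (lengths from GenomeInfoDb 1.38.1, R 4.3.3). Positions are printed 1-based on mm9, and the start column was taken as 0-based.

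Pairs, spacings and widths were computed with pandas 2.3.3, numpy 2.4.6 and scipy 1.17.1 under Python 3.11.15. Figures were drawn with matplotlib 3.10.9. Pair detection was tested on simulated lists. Wilson and median intervals are at 95%, cover counting error only and treat sites as independent. The gene table covered GRCm38, another build, so no peak was joined to a gene. A genome sequence and gene annotation of mm9 were not used here, and the planned motif, start-site and gene-list counts were not run. No test was made, because 1 list holds no spread between samples. The members and lists were chosen with earlier results of these data known. Named pairs are those with the smallest gaps, those nearest the linking limit, the largest summed widths, the largest width ratios and, with both partners over 300 bp, the smallest width differences. The tightest and loosest pair by midpoint were added after the values were seen. Alternatives were a linking gap of 500 or 2000 bp, midpoint distance, dropping peaks of the lowest width, autosomes alone, pairs with no other peak within 10 kb, and merged regions as the chromosome reference.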

Additional observations from a re-analysis of the deposited data

How the results depend on the processing

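Without scores, depth or separate replicates, peak strength and a stricter peak threshold could not be tried, and leaving out a replicate could not be fitted to 1 list. No paired analysis was possible because the result comes from no test and the list carries no replicate numbers. Of 33 comparisons of a main value with an alternative, 27 stayed within its counting interval, or within 1.5 times for a count. Some of these could hardly move, since autosomes alone kept 1360 of the 1361 pairs and midpoint distance kept 1273. A partner correlation of 0.067 at 2000 bp also counted as unchanged. For chromosomes only the number with a pair share above the peak share was compared, which can stay similar while single chromosomes change side. Asking for no other peak within 10 kb left 861 pairs by construction and gave a partner width correlation (Spearman's rho) of 0.095, where the main value was 0.034. The median midpoint spacing was 398.8 bp with a linking gap of at most 500 bp, 544 bp with at most 2000 bp and 485.5 bp without peaks at the lowest width, where the median width of paired peaks was 176 bp. These shifts come with the alternatives' own limits on gap and width, and for the correlation the cause was not tested. Against their share of peaks, chromosome 13 moved from 0.932 to 1.09 at 500 bp, chromosomes 4 and 5 from 0.957 and 0.995 to 1.01 and 1.02 at 2000 bp, and chromosome 5 to 1.01 with merged regions as the reference. The ratios for chromosomes 9, 11, 14 and 19 stayed on their side of 1 under all 3 of these alternatives. Of the 1361 pairs, 1061 were also pairs at 500 bp and 1235 at 2000 bp. The alternatives for motifs and transcription starts were not run.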

Other observations

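The 1361 pairs fell in 701 windows of 1 Mb, of the 1774 windows that held any region, and 397 of these windows held 1 pair only. Of the pairs, 25.1% lay in the 54 windows with 5 or more. The windows below were picked by their counts. The fullest, on chromosome 19 from 5000001 to 6000000, held 14 pairs among 59 regions. It was followed by chromosome 19 from 7000001 to 8000000, with 10 pairs among 36 regions, and chromosome 2 from 167000001 to 168000000, with 10 pairs among 54 regions. Next, with 8 pairs each, were windows on chromosome 5 from 137000001 to 138000000, chromosome 10 from 80000001 to 81000000, and chromosome 11 from 69000001 to 70000000 and from 115000001 to 116000000. In these 4 windows the number of regions ran from 33 to 60, so windows with the same number of pairs differed in how many other sites they held. Chromosome 10, which had 28 pairs in all, thus had 8 of them in a single window.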
